A study of Mus musculus with 6 samples.

Results

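The chemokine ligands and chemokine receptors are described here in RNA of samples labelled as primary mouse hepatic stellate cells. A gene was taken when its symbol began with Ccl, Ccr, Cxcl, Cxcr, Cx3cl, Cx3cr, Xcl, Xcr or Ackr, followed by a number and at most one letter. This rule took 55 of the 22905 genes in the count table, namely 33 ligands, 18 signalling receptors and 4 atypical receptors. The rule used symbols and no expression values, but it was chosen with earlier results of these data known. After the filter on low counts 14439 genes were tested, and 41 of the 55 were among them (26 ligands, 12 signalling receptors and 3 atypical receptors).

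All 6 libraries came from animals of the genotype BucheKI/KI-Hep that had received CCl4 (carbon tetrachloride), a liver toxin used to produce fibrosis. The groups differed in the agent named in the sample titles, PBS (3 libraries) or DOX (3 libraries). The introduced gene makes hepatocytes produce extra butyrylcholinesterase, per the series text, and Bche, the gene of this enzyme, had 8 to 26 counts in the PBS libraries and 582 to 3639 in the DOX libraries. Animals without CCl4 and DOX without the introduced gene were not analysed here, so an action of DOX and one of the introduced gene cannot be told apart. Nothing in the labels says that replicates were separate animals, and the p-values therefore reflect library-to-library spread, which may be technical.

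Library totals were 36220282 to 37707364 counts. Of the stellate cell markers, Lrat and Des were low, at 1.13 to 3.51 and 7.61 to 18.2 CPM (counts scaled to 1e+06 per library, with TMM library factors), and Dcn and Col3a1 were abundant, at 353 to 762 and 148 to 403 CPM. The endothelial gene Cdh5 stood at 2001 to 2751 CPM. Over all libraries the endothelial marker list summed to 5489 to 7706 CPM and the macrophage list to 4092 to 13360 CPM. The stellate lists summed to less, 662 to 1462 CPM (quiescent) and 547 to 1307 CPM (activated), though the lists differ in length. The levels given below therefore cannot be assigned to stellate cells. The RNA was measured in bulk, so fewer cells of a type cannot be told apart from less RNA per cell.

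Chemokines are small secreted proteins that direct the migration of leukocytes and of some tissue cells. They are grouped by the spacing of their first cysteines into the CC, CXC, CX3C and XC families, and they act on G protein-coupled receptors that signal mainly through Gi proteins. Atypical receptors bind chemokines without this signalling and remove or transport them. In injured liver, CC chemokine ligand 2 and its receptor are best known for recruiting monocytes, and CXCR3 ligands for recruiting T and NK cells.

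The ligand and receptor genes that were called were all higher in DOX. Of the 41 tested genes, 12 rose in DOX and 0 fell by edgeR's quasi-likelihood test at an adjusted p of 0.05, beside 4.38% of all tested genes that rose and 2.04% that fell (6.41% in either direction). They included the ligands Ccl3, Ccl4, Ccl8, Ccl12, Ccl24, Cxcl9 and Xcl1 and the receptors Ccr7, Ccr9, Cxcr3 and Cxcr5. Their log2 fold changes ran from 0.96 to 4.33, and 11 of the 12 rose at least 2-fold. The median log2 fold change of the 41 was 0.92, against -0.01 for all tested genes, and 34 of the 41 values were positive against 48.6% of all genes.

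By class, 7 of 26 ligands, 5 of 12 signalling receptors and 0 of 3 atypical receptors rose. Among ligands, 5 of 14 CC genes rose, with a positive log2 fold change in 14 of 14, whereas 1 of 10 CXC genes rose and 6 of 10 values were positive. The median was 0.95 for CC ligands and 0.04 for CXC ligands, and the difference between these families was not tested. All 3 DOX libraries lay above all 3 PBS libraries for 20 of the 41 genes, beside 16.9% of all tested genes, and they lay below for 0 of the 41, beside 17.7%. With no gene called lower, 1 of the 41, Cxcr4, had a negative change at an unadjusted p under 0.05, and limma-voom and DESeq2 also called 0 lower. limma-voom called the same 12 genes as edgeR (background 4.02% higher, 5.97% in either direction). DESeq2 called 21 higher (background 10.9% higher, 6.08% lower), the 12 and also Ackr1, Ccl5, Ccl9, Ccl22, Ccr2, Ccr3, Cxcl10, Cxcl13 and Cxcr6.

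**Figure D1:**
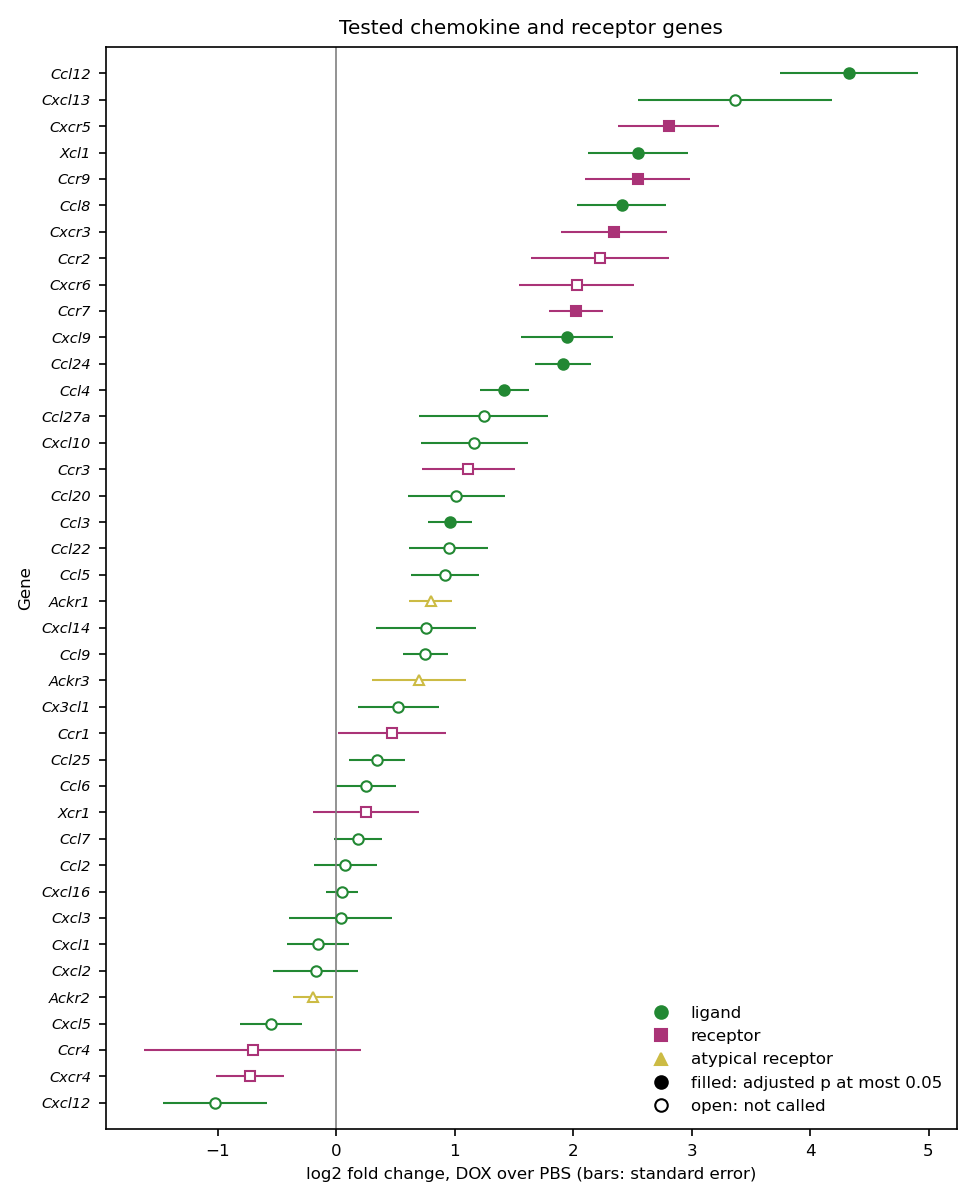
Log2 fold change of DOX over PBS (x axis) for 40 of the tested genes (y axis), with the standard error as bars, circles for ligands, squares for signalling receptors and triangles for atypical receptors. Filled symbols are 11 genes past an adjusted p of 0.05, which lie between 0.96 and 4.33, and the 7 genes left of 0 are all open.

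None of the 12 calls held in every fit that left out 1 library. Without PBS replicate 2 or PBS replicate 3, edgeR called 0 of the 12 (smallest adjusted p of these genes 0.0663 and 0.0634), as it called 0 of all genes. At an unadjusted p under 0.05 stood 20 and 21 of the 43 members tested in these fits, 2 and 1 of them lower, beside 3294 of 14782 and 3092 of 14787 genes. Without DOX replicate 1, 10 of the 12 lost the call, and Ccl12 and Ccr7 were the 2 members called. Without DOX replicate 2, 6 of the 12 lost the call, Ccl3, Ccr9, Cxcl9, Cxcr3 and Cxcr5 among them, and 8 members were called, among them Ackr1 and Ccl9. Without PBS replicate 1, Ccl3 and Cxcl9 lost it and 15 members were called, and without DOX replicate 3, 2 did, Cxcr3 among them. In these fits every one of the 12 log2 fold changes stayed positive.

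**Figure D2:**
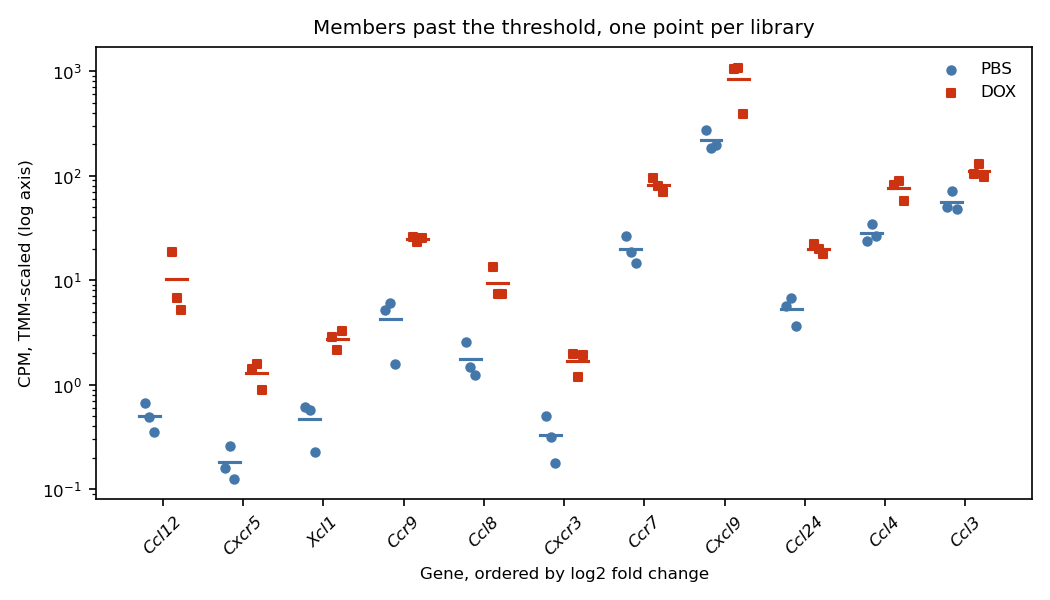
CPM on a log axis of 11 genes past the threshold, ordered by log2 fold change, with 1 point per library (circles PBS, squares DOX) and a line at each group's mean. The 3 DOX points lie above the 3 PBS points for each of the 11 genes, from Ccl12 at 0.354 to 18.6 CPM to Cxcl9 at 185 to 1082 CPM.

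The levels per transcript length, taken from the deposited FPKM (fragments scaled by transcript length and library total), were very unequal. Ccl2 was the most abundant member, at 2932 FPKM in PBS and 2831 in DOX, followed by Cxcl10 at 1165 and 2393 FPKM. Ccl7, Ccl5, Cxcl1, Cxcl16, Cxcl2 and Cxcl9 came next, with means over the 6 libraries between 643 and 176 FPKM. Ccl7 and Ccl5 differed by less than the spread of their libraries. Among receptors the order was Ackr1 (135 FPKM in PBS, 215 in DOX), Cxcr4 (51.7 and 29.0), Ccr7 (10.5 and 39.1) and Ackr3 (9.40 and 14.2), with Ccr1 (9.08 and 11.7) below it by less than the spread of their libraries. Several genes that rose most were scarce, with Cxcr3 at 0.214 FPKM in PBS and Cxcr5 at 0.0723. All ligands together held 0.590% to 0.852% of the counts in PBS and 0.722% to 1.15% in DOX, and all receptors 0.0386% to 0.0541% and 0.0509% to 0.0722%. The ranges of these shares of library totals overlapped between the groups in both classes. As CPM with TMM factors, ligand sums overlapped (5589 to 8346 CPM in PBS, 7160 to 12260 CPM in DOX). Receptor sums did not, at 365 to 530 CPM in PBS and 541 to 756 CPM in DOX.

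**Figure D3:**
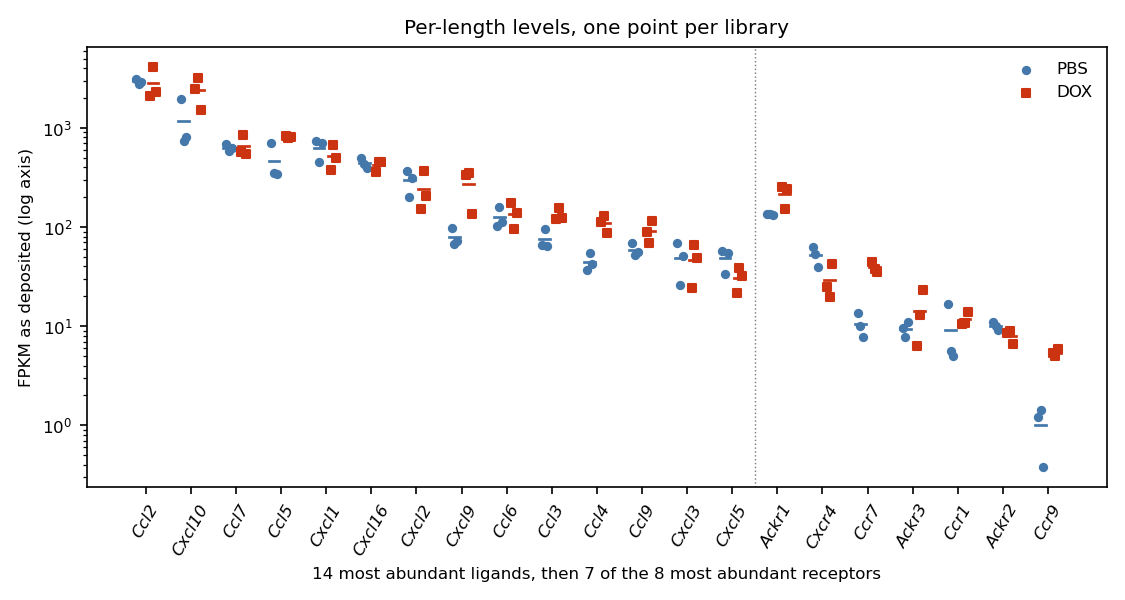
Deposited FPKM on a log axis of the 14 most abundant ligands and, right of the dotted line, 7 of the 8 most abundant receptors, with 1 point per library (circles PBS, squares DOX) and a line at each group's mean. Ccl2 is highest, with group means of 2932 and 2831 FPKM that nearly coincide, while the DOX points of Cxcl9, Ccl4, Ccr7 and Ccr9 lie above their PBS points.

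The ligands of CCR2, the receptor that brings inflammatory monocytes out of the bone marrow, did not move together. Ccl12 had 0.663, 0.497 and 0.354 CPM in PBS replicates 1, 2 and 3 and 18.6, 6.82 and 5.16 CPM in DOX replicates 1, 2 and 3. It was thus barely expressed in each PBS library and present in each DOX library, most in replicate 1. The rise was 20.1-fold (edgeR log2 fold change 4.33 ± 0.59 SE, adjusted p = 0.0233), and leaving out DOX replicate 1 gave a log2 value of 3.57. Ccl2, the main CCR2 ligand, had 2459, 2108 and 2226 CPM in PBS and 1811, 3512 and 1853 CPM in DOX. Its DOX libraries lay on both sides of the PBS libraries, with replicate 2 high and the other 2 low. The log2 fold change of Ccl2 was 0.08 (SE 0.27, edgeR adjusted p = 0.876), and its sign turned by library totals alone (-0.05). Ccl7, another CCR2 ligand, had 541, 443 and 469 CPM in PBS and 495, 725 and 432 CPM in DOX (edgeR log2 fold change 0.18 ± 0.20 SE, adjusted p = 0.585), again with DOX replicate 2 highest. Ccr2 itself had 2.36, 2.25 and 0.480 CPM in PBS and 10.4, 4.73 and 8.76 CPM in DOX. The groups of Ccr2 did not overlap, yet edgeR did not call it (log2 fold change 2.23 ± 0.58 SE, adjusted p = 0.0657), whereas DESeq2 did (adjusted p = 0.000711).

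Ccl12 and Ccl2 are neighbours on chromosome 11 (GRCm38), Ccl2 from 82035577 to 82037452 and Ccl12 from 82101845 to 82103399. Between them lie Ccl7 (82045712 to 82047525) and Ccl11 (82057832 to 82062955), which had 13 counts over all libraries and was not tested. Ccl8, from 82115185 to 82116799, begins 11.8 kb beyond Ccl12. Ccl8, which encodes a CC ligand that acts on CCR8 in mice, had 2.57, 1.47 and 1.24 CPM in PBS and 13.3, 7.41 and 7.39 CPM in DOX. This rise was 5.32-fold (edgeR log2 fold change 2.41 ± 0.38 SE, adjusted p = 0.0265), again with DOX replicate 1 highest. For every 100 FPKM of Ccl2 there were 0.0405, 0.0355 and 0.0239 FPKM of Ccl12 in PBS and 1.54, 0.292 and 0.419 in DOX. For every 100 FPKM of Ccl7 there were 0.746, 0.518 and 0.413 FPKM of Ccl8 in PBS and 4.21, 1.60 and 2.68 in DOX. Neither ratio overlapped between the groups, with an exact two-sided permutation p of 0.1 each (0.133 adjusted over 4 ratios, which were chosen after values were seen), which is the smallest p that 3 libraries against 3 allow. No stretch of 50 bases of the Ccl12, Ccl8, Ccl2 or Ccl7 transcripts occurs in transcripts of another gene in the GENCODE annotation.

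The bases before the start sites of Ccl12 and Ccl8 are shown because this adjacent pair rose together beside Ccl2 and Ccl7. They come from RefSeq promoters of GRCm38.p6, plus strand, chr11:82101735-82101844 for Ccl12 and chr11:82115075-82115184 for Ccl8, and capitals mark the letters TATAAA, which begin 31 and 32 bases before the start.
Ccl12: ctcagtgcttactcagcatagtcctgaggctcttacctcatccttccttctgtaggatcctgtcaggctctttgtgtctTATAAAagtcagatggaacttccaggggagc
Ccl8: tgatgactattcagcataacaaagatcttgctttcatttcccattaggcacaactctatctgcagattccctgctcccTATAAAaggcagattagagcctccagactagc
In the 250 bases before the start, searched on both strands, TATAAA was present in 6.97% of the 11264 promoters of tested genes. Of the 31 tested members whose promoter was in the table, 10 held it, 3 of 7 called higher and 7 of 24 not called. Ccl2 and Ccl7 had no promoter in the table, so Ccl12 and Ccl8 could not be compared with them.

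**Figure D4:**
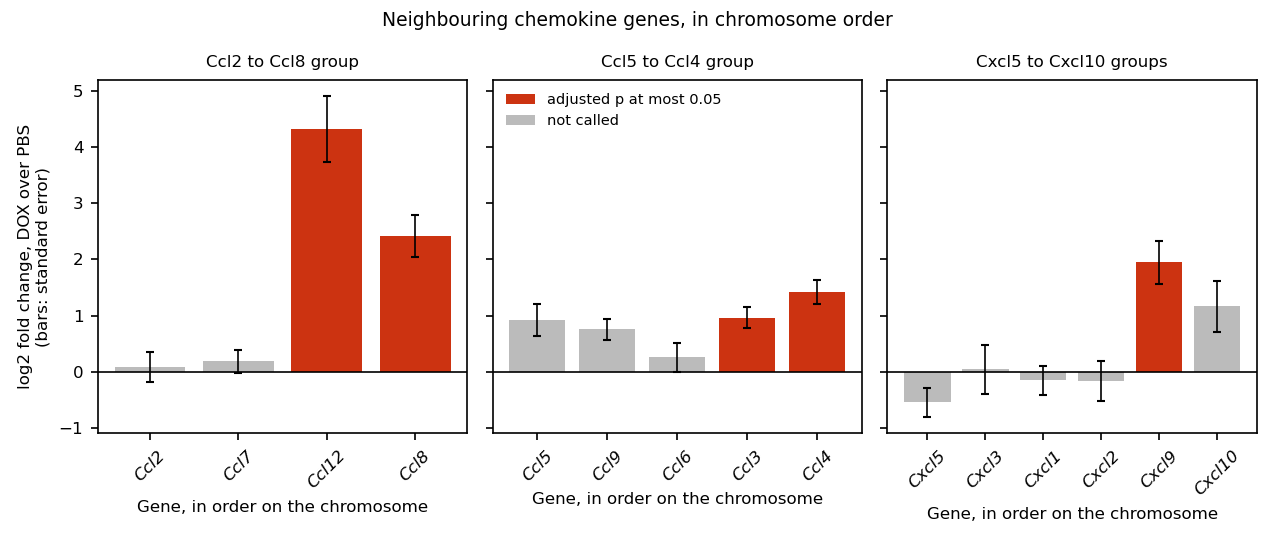
Log2 fold change of DOX over PBS (bars, with the standard error) of tested neighbours in chromosome order, Ccl2 to Ccl8 and Ccl5 to Ccl4 on chromosome 11 and Cxcl5 to Cxcl10 on chromosome 5, without the untested Ccl11. Red bars are past an adjusted p of 0.05, and Ccl12 (4.33) and Ccl8 (2.41) stand beside Ccl2 (0.08) and Ccl7 (0.18).

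The neighbouring ligand genes Ccl3 and Ccl4 both rose. The proteins they encode, also called MIP-1 alpha and beta, are made by activated macrophages and lymphocytes. Ccl4 had 23.8, 34.5 and 26.5 CPM in PBS and 80.7, 89.4 and 56.8 CPM in DOX, a 2.67-fold rise (edgeR log2 fold change 1.42 ± 0.21 SE, adjusted p = 0.0241). Ccl3 had 50.5, 71.6 and 47.8 CPM in PBS and 104, 130 and 96.2 CPM in DOX, a 1.94-fold rise (edgeR log2 fold change 0.96 ± 0.19 SE, adjusted p = 0.0360). In both genes every DOX library was above every PBS library. On chromosome 11 the RefSeq spans of Ccl3 (83647843 to 83649378) and Ccl4 (83648624 to 83664683) overlap, on opposite strands. Their exons share no bases in the GENCODE annotation, and whether their reads mixed was not tested. There were 56.4, 57.7 and 66.5 FPKM of Ccl4 for every 100 of Ccl3 in PBS and 93.2, 82.2 and 70.7 in DOX (exact two-sided permutation p = 0.1, the smallest possible).

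Ccl5, whose protein acts on CCR1 and CCR3 among other receptors, had 363, 177 and 173 CPM in PBS and 480, 445 and 425 CPM in DOX. These groups did not overlap, but PBS replicate 1 was close to the DOX libraries. edgeR did not call Ccl5 (log2 fold change 0.92 ± 0.29 SE, adjusted p = 0.0960) except without PBS replicate 1 (1.36, adjusted p = 0.0246). Ccr1 stood at 46.0, 14.97 and 13.51 CPM in PBS and 32.5, 32.2 and 38.7 CPM in DOX, so that PBS replicate 1 lay above every DOX library and the other 2 below. Its log2 fold change was 0.47 (SE 0.45, edgeR adjusted p = 0.534), and 1.27 without PBS replicate 1 (adjusted p = 0.0246).

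Ccl6 and Ccl9 encode CCR1 ligands that are found in rodents. Ccl9 had 202, 149 and 158 CPM in PBS and 292, 220 and 346 CPM in DOX, with no overlap (edgeR log2 fold change 0.75 ± 0.19 SE, adjusted p = 0.0607). Leaving out DOX replicate 2 brought it past the threshold (0.91, edgeR adjusted p = 0.0494). Ccl6 had 144, 217 and 152 CPM in PBS and 272, 144 and 196 CPM in DOX, with DOX replicate 1 above every PBS library and the other 2 within the PBS range (edgeR log2 fold change 0.25 ± 0.25 SE, adjusted p = 0.550).

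The interferon-inducible CXCR3 axis rose in Cxcl9 and in the receptor gene Cxcr3. Cxcl9 had 275, 185 and 197 CPM in PBS and 1057, 1082 and 393 CPM in DOX. DOX replicate 3 was the lowest of its group and still above every PBS library. The rise was 3.85-fold (edgeR log2 fold change 1.95 ± 0.39 SE, adjusted p = 0.0373). Cxcl10, its neighbour 18.6 kb away on chromosome 5, was far more abundant, at 2091, 774 and 846 CPM in PBS and 2916, 3750 and 1670 CPM in DOX. PBS replicate 1 lay above DOX replicate 3, and edgeR did not call Cxcl10 (log2 fold change 1.17 ± 0.45 SE, adjusted p = 0.147) except without PBS replicate 1 (1.78, adjusted p = 0.0450). There were 4.99, 9.04 and 8.84 FPKM of Cxcl9 for every 100 of Cxcl10 in PBS and 13.7, 10.9 and 8.92 in DOX, an overlap (exact two-sided permutation p = 0.2). Cxcr3, the receptor of both on activated T and NK cells, was read 19, 12 and 7 times in PBS and 68, 42 and 70 times in DOX. As CPM this was 0.331 ± 0.164 and 1.69 ± 0.445 (SD, n = 3 each), a 5.08-fold rise (edgeR log2 fold change 2.35 ± 0.45 SE, adjusted p = 0.0352).

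Markers of T and NK cells were also higher in sum in each DOX library. The 12 markers in the table summed to 3.81 to 11.4 CPM in PBS and 19.4 to 35.2 CPM in DOX, and 4 of 11 tested rose, namely Cd4, Gzma, Nkg7 and Prf1. Cd3e, the defining T cell gene, was at 0.126 to 1.43 CPM in PBS and 0.845 to 2.11 CPM in DOX. The part of these cells in the rise of Cxcr3 was not tested. Ifng, the inducer of Cxcl9 and Cxcl10, stood at 0.663, 0.288 and 0.202 CPM in PBS and 7.35, 4.70 and 1.26 CPM in DOX (edgeR log2 fold change 3.52 ± 0.74 SE, adjusted p = 0.0425). DOX replicate 3 was lowest for Ifng as for Cxcl9 and Cxcl10. That library was also the lowest of its group for Ccl3, Ccl4, Ccl8, Ccl12, Ccl24, Ccr7 and Cxcr5, but not for Ccr9, Cxcr3 or Xcl1. The highest DOX library was not the same for Ifng as for Cxcl9 and Cxcl10. Whether Ifng had a part in the rise of Cxcl9 was not tested. Ifng was chosen after its values were seen.

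Of the genes of the XCR1 and CXCR6 axes, Xcl1 rose, while Xcr1, Cxcr6 and Cxcl16 were not called. Xcl1, a ligand made by NK and CD8 T cells, was read 23, 22 and 9 times in PBS and 98, 76 and 121 times in DOX. Xcl1 shares exon bases with Gm20743 on the opposite strand, and without known strand use their reads could mix. The rise was 5.86-fold, from 0.471 ± 0.212 to 2.77 ± 0.587 CPM (SD, n = 3 each; edgeR log2 fold change 2.55 ± 0.42 SE, adjusted p = 0.0278). Its receptor gene Xcr1, a marker of cross-presenting dendritic cells, had 0.434 ± 0.168 CPM in PBS and 0.516 ± 0.196 in DOX (edgeR log2 fold change 0.25 ± 0.45 SE, adjusted p = 0.752). Cxcr6, carried by liver-resident T and NK cells, had 1.94, 0.680 and 0.833 CPM in PBS and 6.61, 2.96 and 4.53 CPM in DOX. These libraries did not overlap, and edgeR put Cxcr6 just outside the threshold (log2 fold change 2.03 ± 0.49 SE, adjusted p = 0.0540) and inside it in some other fits, among them that without PBS replicate 1 (2.63, adjusted p = 0.0340). Cxcl16, the transmembrane ligand of CXCR6, was nearly level, at 726, 605 and 557 CPM in PBS and 581, 709 and 662 CPM in DOX (edgeR log2 fold change 0.05 ± 0.14 SE, adjusted p = 0.849).

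CXCL13 and CXCR5 guide B cells and follicular helper T cells into lymphoid follicles. Cxcr5 was read 6, 10 and 5 times in PBS and 48, 56 and 33 times in DOX, a 6.99-fold rise (edgeR log2 fold change 2.81 ± 0.43 SE, adjusted p = 0.0256). Exon bases of Bcl9l on the opposite strand overlap Cxcr5, and without known strand use their reads could mix. Bcl9l had 587 to 658 counts in PBS and 614 to 800 in DOX. Cxcl13 had 0.557, 5.34 and 2.70 CPM in PBS and 50.7, 27.1 and 11.3 CPM in DOX. All DOX libraries of Cxcl13 were above all PBS libraries, with spreads of more than 4-fold within each group. It was just outside the threshold (edgeR log2 fold change 3.37 ± 0.82 SE, adjusted p = 0.0554). edgeR called it by library totals alone (3.21, adjusted p = 0.0494), with no low-count filter (3.37, adjusted p = 0.0308) and without DOX replicate 3 (3.76, adjusted p = 0.0433), and DESeq2 gave an adjusted p of 0.00582. B cell markers summed to 1.83 to 2.73 CPM in PBS and 2.76 to 6.17 CPM in DOX.

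The homing receptor genes Ccr7 and Ccr9 rose as well. Ccr7, which leads mature dendritic cells and naive T cells to lymph nodes, had 26.4, 18.6 and 14.7 CPM in PBS and 94.7, 79.2 and 69.1 CPM in DOX. The lowest DOX library stood well above the highest PBS library. The rise was 4.08-fold (edgeR log2 fold change 2.03 ± 0.23 SE, adjusted p = 0.0200), the lowest adjusted p of the 41 genes. Its ligand genes Ccl19, Ccl21a and Ccl21b had 15, 67 and 2 counts over all libraries and were not tested. Reads of these ligands are also uncertain, since 52.0%, 71.6% and 100% of their 50-base stretches also occur in transcripts of other genes. Ccl21a and Ccl21b share theirs with each other and with further gene models, and Ccl19 with its pseudogenes Ccl19-ps1 and Ccl19-ps3 and further gene models.

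Ccr9, known on gut-homing T cells and plasmacytoid dendritic cells, had 5.196, 5.99 and 1.57 CPM in PBS and 25.8, 23.1 and 25.5 CPM in DOX, a 5.83-fold rise (edgeR log2 fold change 2.54 ± 0.44 SE, adjusted p = 0.0296). The DOX libraries were close together and the low PBS value was that of replicate 3. Its ligand gene Ccl25 had 1.78, 1.81 and 1.64 CPM in PBS and 2.28, 1.86 and 2.48 CPM in DOX (edgeR log2 fold change 0.34 ± 0.24 SE, adjusted p = 0.385), and shares exon bases with Elavl1 on the opposite strand. Of 7 tested dendritic cell markers, Flt3 and Siglech rose, the latter a plasmacytoid cell gene at 0.354 to 2.17 CPM in PBS and 8.06 to 10.1 CPM in DOX. The 8 dendritic markers summed to 252 to 297 CPM in PBS and 224 to 266 CPM in DOX, with the more abundant Fscn1 and Itgax not called. Whether dendritic cells played a part in the rise of Ccr7 or Ccr9 was not tested.

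Ccl24, also called eotaxin-2, attracts eosinophils through CCR3 and is made by alternatively activated macrophages. It had 5.67, 6.70 and 3.61 CPM in PBS and 22.4, 19.9 and 17.9 CPM in DOX, a 3.77-fold rise with little spread in DOX (edgeR log2 fold change 1.91 ± 0.24 SE, adjusted p = 0.0206). Ccr3 had 1.33, 1.10 and 1.16 CPM in PBS and 2.78, 1.32 and 3.68 CPM in DOX (edgeR log2 fold change 1.12 ± 0.40 SE, adjusted p = 0.120). Its DOX replicate 2 lay just below PBS replicate 1. Ccl22, a CCR4 ligand of dendritic cells and macrophages, had 28.7, 16.2 and 10.6 CPM in PBS and 30.8, 37.9 and 38.6 CPM in DOX. It was not called with all libraries (edgeR log2 fold change 0.95 ± 0.33 SE, adjusted p = 0.119) but was without PBS replicate 1 (1.41, adjusted p = 0.0313).

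The genes of the neutrophil-attracting CXCR2 ligands gave no call in either direction. Cxcl1 had 681, 410 and 629 CPM in PBS and 388, 686 and 471 CPM in DOX (edgeR log2 fold change -0.16 ± 0.26 SE, adjusted p = 0.738). Cxcl2 had 392, 205 and 323 CPM in PBS and 179, 419 and 219 CPM in DOX (edgeR log2 fold change -0.17 ± 0.36 SE, adjusted p = 0.793). In Cxcl1, Cxcl2 and Cxcl3 the lowest PBS library was replicate 2, the highest DOX library was replicate 2, and the groups overlapped. Cxcl3 had 47.9 ± 22.1 CPM in PBS and 49.2 ± 22.1 in DOX (SD, n = 3 each; log2 fold change 0.04, -0.07 by library totals alone, edgeR adjusted p = 0.963). Cxcl5 had 93.0, 53.0 and 85.7 CPM in PBS and 38.6, 67.3 and 52.4 CPM in DOX (edgeR log2 fold change -0.55 ± 0.26 SE, adjusted p = 0.219). The receptor genes Cxcr2 and Cxcr1 had 20 counts and 1 count over the 6 libraries and were not tested. Neutrophil markers summed to 27.6 to 59.9 CPM in PBS and 114 to 154 CPM in DOX, most of it from Csf3r (24.7 to 53.5 and 85.9 to 144 CPM). Csf3r, S100a8 and S100a9 were called higher among 6 tested, and each marker other than Csf3r was below 10 CPM in every library. The defining gene Ly6g was at 0 to 0.109 CPM in every library.

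The bases before the start sites of Cxcl1, Cxcl2, Cxcl3 and Cxcl10 are shown because they hold a kB-type motif, and these 4 genes were not called. This motif is a form of the letters that NF-kB factors bind. The motif searched was GGGA and TTCC with any 2 bases between them, on both strands, and Cxcl10 was also matched by the interferon response letters, GAAA and GAAA with any 2 bases between them. Capitals mark these matches. In Cxcl1, Cxcl2 and Cxcl3 the capitals are 2 matches on opposite strands that overlap by all but 1 base. The windows are chr5:90891135-90891240, chr5:90903789-90903870 and chr5:90785991-90786100 on the plus strand and chr5:92348890-92349119 on the minus strand, from RefSeq promoters of GRCm38.p6, without bases that an annotated exon covers.
Cxcl1: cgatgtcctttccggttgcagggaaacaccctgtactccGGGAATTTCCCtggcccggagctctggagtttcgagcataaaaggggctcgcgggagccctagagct
Cxcl2: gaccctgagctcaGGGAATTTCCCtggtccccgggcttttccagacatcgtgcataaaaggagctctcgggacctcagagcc
Cxcl3: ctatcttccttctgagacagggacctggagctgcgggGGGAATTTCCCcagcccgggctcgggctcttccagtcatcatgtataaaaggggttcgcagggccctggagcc
Cxcl10: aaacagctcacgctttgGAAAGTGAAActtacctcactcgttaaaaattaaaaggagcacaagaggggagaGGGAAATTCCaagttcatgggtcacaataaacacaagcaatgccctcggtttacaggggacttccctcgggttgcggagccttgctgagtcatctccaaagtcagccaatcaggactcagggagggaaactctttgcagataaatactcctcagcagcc

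In the 250 bases before the start, the kB letters were present in 1.31% of the 11264 promoters of tested genes. Of the 31 tested members with a promoter in the table, 5 held them (16.1%), the 4 above and Ccr3. None of the 7 members called higher whose promoter was in the table held them. At shares this low, 7 promoters are too few to compare called members with the others. Other forms of the kB letters were not searched, so a promoter without a match may still hold one. The remaining called members had no promoter in the table. The interferon response letters were in 2.75% of promoters of tested genes and in 2 of the 31, Cxcl10 and Cxcl14. The STAT letters TTCNNNGAA, also searched on both strands, were in 6.03% of promoters of tested genes and in 1 of the 31, Cxcl14. A match is a stretch of letters and no evidence of binding.

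Cxcl12, a ligand made by stromal and endothelial cells, and its receptor gene Cxcr4 had the lowest log2 fold changes of the 41 members. Cxcl12 had 173, 89.8 and 276 CPM in PBS and 54.1, 87.7 and 124 CPM in DOX. The groups overlapped, and Cxcl12 was not called (edgeR log2 fold change -1.02 ± 0.44 SE, adjusted p = 0.179). Leaving out PBS replicate 3 gave -0.57. Cxcr4 had 177, 145 and 107 CPM in PBS and 78.2, 59.8 and 121 CPM in DOX, with DOX replicate 3 above PBS replicate 3 (edgeR log2 fold change -0.73 ± 0.28 SE, adjusted p = 0.147). The third gene of this axis, Ackr3, which encodes the scavenger receptor of CXCL12, had 21.7, 17.1 and 24.2 CPM in PBS and 16.1, 32.0 and 54.1 CPM in DOX. It spanned a range of more than 3-fold within DOX (edgeR log2 fold change 0.70 ± 0.40 SE, adjusted p = 0.291), and was 0.20 without DOX replicate 3. Sums of stellate cell markers overlapped between the groups. They were 662 to 1462 CPM in PBS and 826 to 1286 CPM in DOX for the quiescent list, and 547 to 1307 and 581 to 950 CPM for the activated list. The log2 fold change was positive for 11 of 13 quiescent and 3 of 9 activated markers. Lowest among the activated markers were Tagln (-1.51, edgeR adjusted p = 0.0958) and Acta2 (-1.13, edgeR adjusted p = 0.0797), neither of them called.

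Ackr1, which carries chemokines across venular endothelium, was the most abundant receptor gene and just missed the threshold. It had 154, 150 and 147 CPM in PBS and 318, 189 and 276 CPM in DOX, without overlap (edgeR log2 fold change 0.80 ± 0.18 SE, adjusted p = 0.0505). DESeq2 called it (adjusted p = 0.00196), as did edgeR with RLE factors and without DOX replicate 2 (0.98, adjusted p = 0.0369). Of its 50-base stretches 20.4% also occur in transcripts of Cadm3, which had 281 to 401 counts in PBS and 343 to 466 in DOX, against 5728 to 5811 and 6694 to 10882 for Ackr1. Ackr2, the scavenger of inflammatory CC chemokines, had 34.3, 29.9 and 27.3 CPM in PBS and 29.0, 30.4 and 20.6 CPM in DOX (edgeR log2 fold change -0.19 ± 0.17 SE, adjusted p = 0.495). Endothelial markers summed to 6187 to 7706 CPM in PBS and 5489 to 6679 CPM in DOX, and Tek, 1 of 13 tested, fell. Of the 13, 3 had a positive log2 fold change, and the median was -0.27.

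Ligands were then paired with their known receptors. Of the pairs with both genes tested, 19 are given here. Both genes rose in 1 pair, Cxcl9 with Cxcr3. The ligand alone rose in 4 pairs (Ccl3 with Ccr1, Ccl12 with Ccr2, Ccl24 with Ccr3, Xcl1 with Xcr1), the receptor alone in 3 (Ccl25 with Ccr9, Cxcl10 with Cxcr3, Cxcl13 with Cxcr5) and neither in 11. Both log2 fold changes were positive in 16 of the 19 pairs. Both were negative for Cxcl12 with Cxcr4, and the signs differed for Ccl22 with Ccr4 and Cxcl12 with Ackr3. The count of positive pairs stands beside 34 of the 41 tested members with a positive value. Agreement within pairs beyond that share was not tested. Pairs share ligands and receptors and all come from the same 6 libraries, so they are no independent observations.

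**Figure D5:**
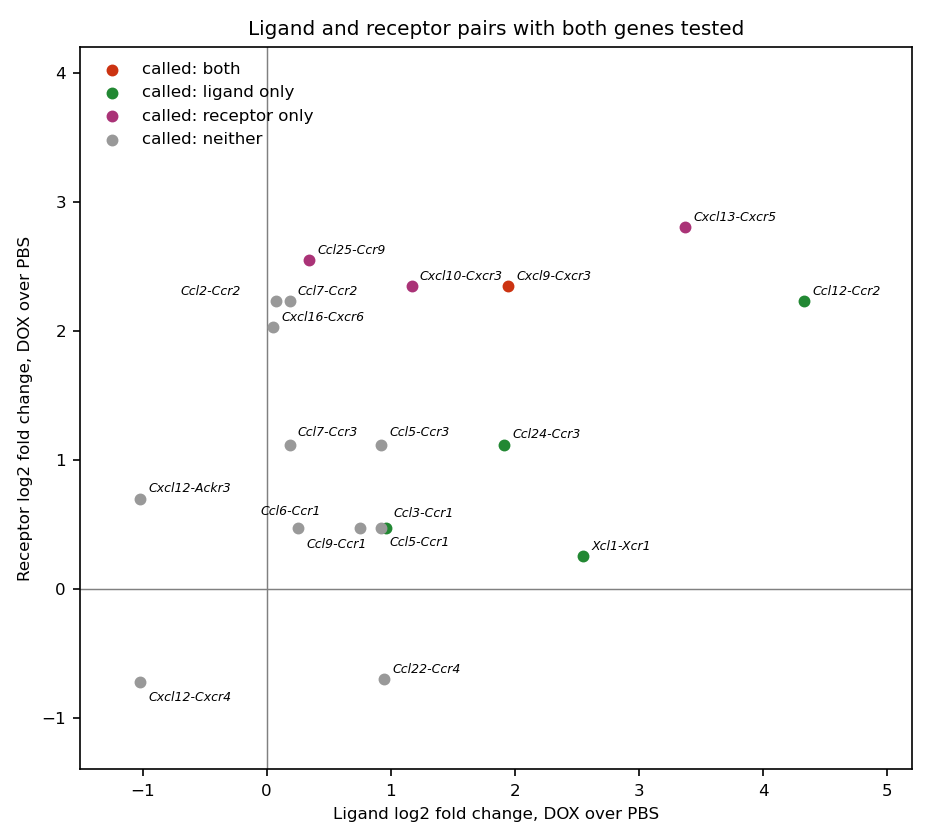
Log2 fold change of the ligand (x axis) and of its receptor (y axis), DOX over PBS, for 19 pairs with both genes tested, coloured by which of the pair passed an adjusted p of 0.05. Of these, 16 lie at the upper right, above 0 on both axes, Cxcl12-Cxcr4 lies at the lower left, and Ccl2-Ccr2, Ccl7-Ccr2 and Cxcl16-Cxcr6 sit near 0 on the ligand axis.

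The remaining members were low or not called. Ccl27a, Ccl20, Cxcl14, Cx3cl1 and Ccr4 were tested, below 20 CPM on average and not called, with edgeR adjusted p between 0.158 and 0.654 and log2 fold changes from -0.70 to 1.25. Cxcl14, an epithelial and stromal chemokine, was the most abundant of them at 5.44 to 16.9 CPM in PBS and 13.3 to 25.5 CPM in DOX. Reads of Ccl27a are uncertain, since 1204 of its 2677 stretches of 50 bases occur in other transcripts. The 14 untested members had between 1 and 67 counts over all libraries. They were Ccl1, Ccl11, Ccl17, Ccl19, Ccl21a, Ccl21b, Ccl28, Ccr6, Ccr8, Ccr10, Cx3cr1, Cxcr1, Cxcr2 and Ackr4. Ccl1, a CCR8 ligand, had 0 counts in each PBS library and 4, 1 and 2 in DOX. A count of 0 allows up to 3 counts, or 0.0758 to 0.0795 CPM in the PBS libraries, counting error only. DOX replicate 1 lay above this bound, at 0.117 CPM, and the other DOX libraries lay below it. The filter on low counts took Ccl1 out, so the difference was not tested. Cx3cr1, a receptor of patrolling monocytes, had 30 counts in all, beside 582 of its ligand gene Cx3cl1.

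Macrophage markers were higher in sum in each DOX library than in each PBS library. The 15 markers, led by Mpeg1 and Lyz2, summed to 4092 to 6074 CPM in PBS and 7353 to 13360 CPM in DOX, highest in DOX replicate 1. Among ligands that macrophages are known to make, Ccl12, Ccl8 and Ccl24 were also highest in DOX replicate 1, Ccl3 and Ccl4 in replicate 2 and Ccl22 in replicate 3. All 15 had a positive log2 fold change with a median of 1.25, and 2 of 15, C1qb and C1qc, rose. Monocyte markers summed to 163 to 383 CPM in PBS and 508 to 606 in DOX, and Plac8 rose, 1 of 8. The part of these cells in the rise of the ligands was not tested. Lymphatic endothelial markers summed to 319 to 444 CPM in PBS and 370 to 411 in DOX. Hepatocyte markers summed to 284 to 598 CPM in PBS and to 1216, 485 and 4304 CPM in DOX replicates 1, 2 and 3, and Xcl1 was the 1 of the 12 called genes with the same order of the DOX libraries. Cholangiocyte markers summed to 299 to 655 and 511 to 645 CPM, with Epcam called higher, and mesothelial markers to 59.3 to 180 and 191 to 398 CPM. Above 1 CPM on average were 15 of 15 macrophage, 8 of 8 monocyte, 5 of 9 neutrophil, 7 of 8 dendritic, 7 of 12 T and NK, 1 of 8 B cell, 13 of 13 endothelial and 14 of 14 hepatocyte markers, and no listed marker in the table was at 0 in all 6 libraries. No member of the hepatocyte, lymphatic endothelial, B cell, mesothelial or stellate lists passed edgeR's threshold.

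Genes that transmit, induce or trim chemokine signals were followed from 4 further lists, whose counts stand beside the 4.38% of all tested genes that rose. Of 41 tested transducers downstream of the receptors, 10 rose and 1 fell, with a median log2 fold change of 0.49. Pik3cd, a leukocyte phosphoinositide 3-kinase gene, rose 3.56-fold (edgeR adjusted p = 0.0206), Ptk2b, a focal adhesion kinase relative, 2.49-fold and Rac2, a small GTPase gene of blood cells, 3.15-fold (edgeR adjusted p = 0.0240 each). Grk5, a kinase that desensitises receptors, was the 1 that fell (edgeR log2 fold change -0.80 ± 0.17 SE, adjusted p = 0.0453), and is named outside the rule as a single exception. Of 34 tested cytokines and sensors that induce chemokine genes, 9 rose and 0 fell, led by Il10, Il1b and Il1a. Tnf rose 3.08-fold and is given outside the rule, chosen with its value known (edgeR adjusted p = 0.0200). Of 17 tested proteases that shed or trim chemokines, the collagenase gene Mmp13 alone rose, a share near that of all genes. Of 15 tested chemokine-like genes that the symbol rule did not take, 7 rose and 0 fell. They include C5ar1 (2.96-fold), Fpr2 (5.28-fold) and Fpr1 (6.82-fold), which encode chemoattractant receptors of myeloid cells (edgeR adjusted p = 0.0206, 0.0206 and 0.0240), and Ccrl2, an atypical relative named after its value was seen (2.53-fold, edgeR adjusted p = 0.0334).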

How the data were processed

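RNA of 6 libraries was sequenced. The authors deposited raw counts per gene symbol and FPKM values. Every nonzero FPKM equalled the count per library total times a factor fixed per gene (100% within a relative tolerance of 1e-04). No source used here gives the aligner, the counter or the strand setting, and GRCm38, mm10 and hg38 are named without a role, per the submitters' processing notes. Counts were tested with edgeR 4.0.16 (quasi-likelihood F test, TMM factors, filterByExpr with minimum count 10 and total 15, group as the only term, R 4.3.3), with Benjamini-Hochberg adjustment over 14439 genes and a threshold of 0.05. SE came from the F statistic. DESeq2 1.42.0, limma-voom (limma 3.58.1), other factors and filters, FPKM on a log2 scale, a replicate block and leaving out each library were alternatives. Replicates of a group differed, with a chi-square per degree of freedom of 38.6 to 82.1, so none was counted as a repeat. 1 count was worth 0.0253 to 0.0293 CPM.

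The members and lists were chosen with earlier results of these data known. Members named with values were those called, those of at least 20 CPM on average, the pair partners of called members, and those called by DESeq2 or limma-voom alone. Some results that this rule takes are not reported here, though counts over all members include them. Non-members were named by lowest p unless marked. Positions and promoters are RefSeq's for GRCm38.p6: all 55 members had a position and 43 a promoter. Shared 50-base stretches were counted in GENCODE vM21 transcripts. Counts were simulated for this comparison with 14439 genes and edgeR's own estimates of spread. In them edgeR found 59 of 100 genes changed by 1 on the log2 scale and 89 of 100 changed by 2 (6.33% false calls). DESeq2 found 71 and 96 (24.4%).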

Additional observations from a re-analysis of the deposited data

How the results depend on the processing

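The count of members called higher in DOX was 12 with TMM factors and the default filter, and 10 to 17 under the other edgeR factors and filters, 12 in limma-voom, 12 in a robust fit and 9, 12 and 12 in the 3 fits on log2 FPKM. DESeq2 called 21. Its false-call share on simulated counts was the highest of the tools run, but those counts were drawn with edgeR's own estimates of spread. Far fewer genes were changed in them than were called here, so the share may differ in these data. Leaving out 1 library gave between 0 and 15 members. No setting called a member lower. limma on log2(FPKM + 1) lost 3 of the 12, Ccl3 and Cxcl9 among them, and the cause was not tested. With the replicate number as a block, 13 members were higher (the 12 and Cxcr6) and 0 lower. Same-numbered PBS and DOX libraries correlated at 0.084, -0.106 and 0.198 in their deviations from the group means, and not every library correlated best with its own number, so the numbers were not taken as pairs. Genes near 0 changed sign. Ccl2 was -0.0504 by library totals alone and -0.12 in each of the 3 FPKM fits, Cxcl16 -0.073 by library totals and -0.0738, -0.074 and -0.0738 in the FPKM fits, and Cxcl3 -0.0744 by library totals and -0.076, -0.0778 and -0.076 in the FPKM fits. With 1 library left out, log2 fold changes ranged from -0.31 to 0.25 for Ccl2, -0.00093 to 0.46 for Ccl6, -0.0648 to 0.33 for Ccl7, -0.42 to 0.0144 for Cxcl1, -0.0345 to 0.16 for Cxcl16, -0.62 to 0.0579 for Cxcl2, -0.32 to 0.41 for Cxcl3 and -0.0873 to 0.61 for Xcr1. By library totals the median of all genes shifted to -0.14 from -0.01. Depth limits the 14 untested members.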
